A study of Equus caballus with 6 samples.

Results

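The genes described here encode the ion channels, transporters and activation factors that a sperm cell uses to become motile and to start the development of the egg. The set was defined by gene symbol and holds 10 genes: CATSPER1, CATSPER2, CATSPER3, CATSPER4, SLC9C1, KCNU1, HVCN1, SLC26A8, ATP1A4 and PLCZ1. A probe was taken as a member where the platform annotation of the human array gives it exactly 1 symbol and that symbol is one of the 10. By this rule 7 of the 10 genes were read, each by 1 probe, so that 7 of the 53423 gene probes of the array are members. CATSPER3, KCNU1 and ATP1A4 have no probe named for them in the annotation used here, alone or beside other symbols, and were not analysed here. All 10 symbols are also listed for the horse, in the RefSeq gene table.

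The tissue was testicular parenchyma of 6 adult stallions, which holds the seminiferous tubules with their germ cells and the interstitial cells between them. After 10 days of acclimation to the clinic, 3 stallions received dexamethasone, a synthetic glucocorticoid, at 0.1 mg/kg intravenously, and the 3 controls received saline in its place. The testes were taken out 12 h later. Total RNA of each stallion was read on 1 human CodeLink array, so horse transcripts bound to probes designed for human ones, and how well each probe matches its horse transcript was not tested.

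Sperm leave the testis immotile, and ion transport across the flagellar membrane later starts their movement. The CatSper channel lets calcium into the flagellum once the cytoplasm turns alkaline, and its pore is formed by CATSPER1 to CATSPER4 together with auxiliary subunits. SLC9C1, a sodium-proton exchanger of sperm, and HVCN1, a voltage-gated proton channel, move protons out of the cell. KCNU1 is the pore of an alkaline-activated potassium channel of sperm, and ATP1A4 is the sodium pump isoform of sperm. SLC26A8 is an anion transporter found at the annulus of the flagellum. PLCZ1 is the phospholipase that sperm deliver to the egg, where it sets off calcium oscillations. The genes are transcribed in germ cells of the testis, mostly from the spermatocyte stage on. In whole parenchyma, fewer germ cells and less RNA per germ cell cannot be told apart.

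Over all spots the median intensity of an array was 72.6 to 79.4 against a median local background of 47 to 50. Between 42.5% and 47.8% of gene probes were above background on an array, by the deposited quality flags. The labelled tissue was checked against marker lists. At least 3 arrays gave a signal above background for 8 of 10 measured spermatid genes, 5 of 9 spermatocyte genes and 6 of 7 spermatogonia genes. The same held for 9 of 10 Sertoli cell genes, 6 of 7 Leydig cell genes, 5 of 10 blood and immune genes and 0 of 5 genes of duct epithelium. Among the spermatid genes ACRV1, ODF1, ODF2, AKAP4, GAPDHS, SPACA1 and TNP2 were above background on all 6 arrays, and TSSK2 on 5. The probes of TNP1 and PRM2 were above background on 0 arrays. The defining genes of the elongating spermatid were thus read in part, TNP2 but not TNP1 or PRM2. No marker list held a probe past the adjusted test. At an unadjusted p under 0.05 in limma, 1 of the 11 tested Sertoli cell probes was higher, of CLDN11, and 2 of the 9 tested Leydig cell probes were lower, both of INSL3, where 1.47% of all tested probes were higher and 1.81% lower. The other marker lists held none. That CLDN11 probe had 2 control values and differed by 0.48 on the log2 scale. A second tested CLDN11 probe differed by only 0.04 (limma, unadjusted p = 0.765).

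Of the 7 member probes, 2 were above background on all 6 arrays, those of SLC9C1 and PLCZ1. CATSPER1 was above background on 5 arrays, and its spot on the sixth, that of control replicate 3, carried a quality flag (I) of unstated meaning and was not used. HVCN1 was above background on 3 arrays. CATSPER2, CATSPER4 and SLC26A8 were above background on 0 arrays. Over all gene probes, 35.1% were above background on 6 arrays and 44.5% on 0 arrays. The flag follows the signal strength, the spot mean divided by the noise level of that spot, and near-background spots have values below 1. For the 3 undetected probes the signal strength lay between 0.580 and 0.879 on every array, and their intensity exceeded the local background by 1.55 to 21.1 units. A probe near background does not show that its transcript is absent from the horse testis.

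**Figure D1:**
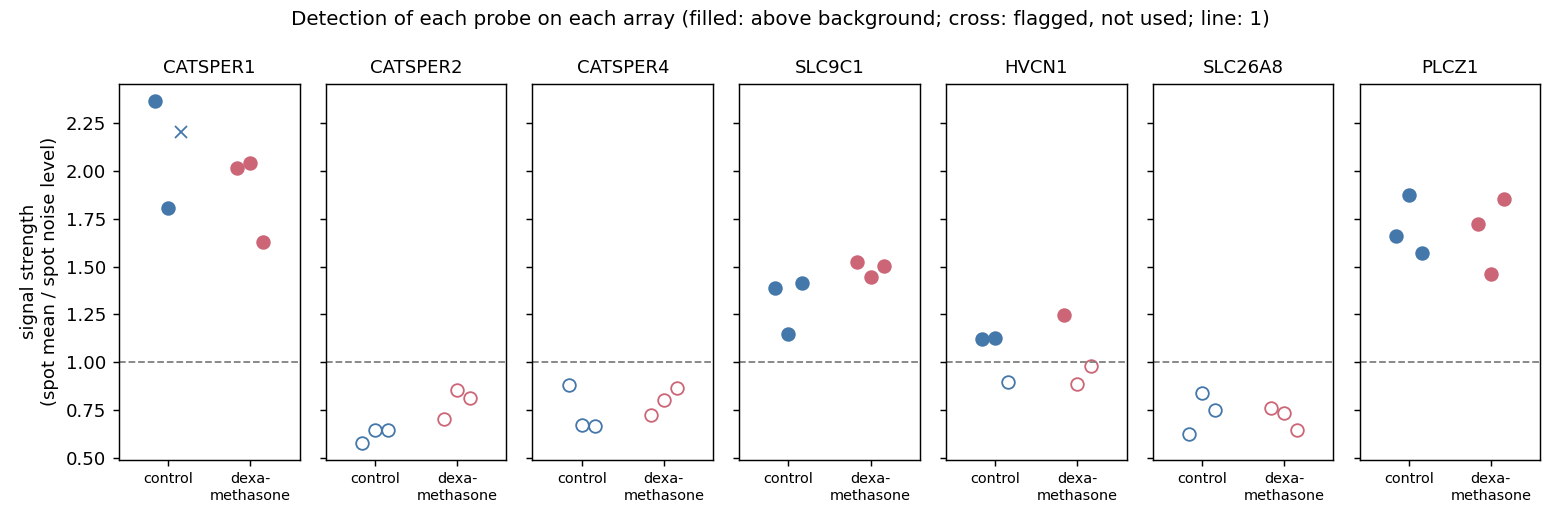
Signal strength (spot mean divided by the noise level of the spot, vertical axis, no unit) of the 7 member probes in 3 control and 3 dexamethasone stallions. Filled points were above background, open points were near background, the cross is a flagged spot that was not used, and the dashed line is at 1. CATSPER1, SLC9C1 and PLCZ1 lie above the line on every array, CATSPER2, CATSPER4 and SLC26A8 lie below it on every array, and HVCN1 lies on both sides.

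The comparison asked whether these genes differed in level between dexamethasone and saline stallions 12 h after the injection. None of the 4 tested member probes passed the test. SLC9C1 had the largest difference among them, higher in the dexamethasone stallions by 0.24 ± 0.10 on the log2 scale (SE), while CATSPER1, HVCN1 and PLCZ1 differed by 0.09 or less. Normalised log2 intensities were compared with limma's moderated test over 24590 probes, those with a signal above background on 3 or more arrays and 2 or more values per group. The adjusted p with limma's Benjamini-Hochberg adjustment was 0.999 for each of the 4. At an adjusted p under 0.05, 0 of the 4 were called, against 0.00407% of all tested probes. At an unadjusted p under 0.05 with limma, 1 of the 4 was higher, where 1.47% of all tested probes were, and 0 were lower, where 1.81% were. The 4 differences were above 0, with a median of 0.07. Over all tested probes the median was -0.01, and 47.5% were above 0. Under median scaling the differences of CATSPER1 and PLCZ1 fell just below 0, where the median over all tested probes was -0.08. Among the germ cell markers, the 8 tested spermatid probes differed by -0.10 to 0.14, with 5 higher and 3 lower. All 5 tested spermatocyte probes were lower, by -0.15 to -0.02 with a median of -0.12, a larger median than the 0.07 of the members and of opposite sign. The 6 tested spermatogonia probes differed by -0.02 to 0.20, with 4 higher and 2 lower. The highest of them, of ZBTB16, had groups that did not overlap, as had 4.2% of all tested probes with the dexamethasone stallions higher. None of these germ cell probes had an unadjusted p under 0.05 in limma, and their part in the members' values was not tested. In this design no exact two-sided permutation test of 1 probe can give a p below 0.1. The number of stallions limits the precision.

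Among the pore subunits of CatSper, only CATSPER1 gave a level above background. Its normalised log2 intensity was 7.33, 7.53 and 7.45 in dexamethasone replicates 1 to 3 and 7.43 and 7.26 in control replicates 1 and 2. The control values enclosed the lowest dexamethasone value, so the groups overlapped. They averaged 7.44 ± 0.10 (SD, n = 3) against 7.35 ± 0.12 (SD, n = 2), a difference of 0.09 ± 0.11 (SE) with a 95% interval from -0.15 to 0.33 (limma, unadjusted p = 0.430). The difference rests on 2 control values, and was 0.17 without control replicate 1 and 0.0048 without control replicate 2. With the flagged spot of control replicate 3 kept, it was -0.01 ± 0.11 (SE), since that spot was bright, at 142.1 units above the local background, against 104 to 140 in the other controls and 113 to 114 in the dexamethasone stallions.

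CATSPER2 lay at 5.99, 6.22 and 6.10 in dexamethasone replicates 1 to 3 and at 5.81, 5.97 and 5.85 in control replicates 1 to 3. Every dexamethasone value was above every control value, by as little as 0.02 between the nearest stallions. Of the tested probes, 4.2% had groups that did not overlap with the dexamethasone stallions higher and 5.07% with them lower. That share was not counted among probes near background. All 6 spots were near background, so the probe was not tested in the main setting, and no fold is given between groups that are both below background. A separate probe of the array is named for CATSPER2P1, a human pseudogene copy of CATSPER2. It was also above background on 0 arrays, at means of 5.96 in dexamethasone and 5.98 in control stallions, and whether either probe binds both transcripts was not tested.

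CATSPER4, a further pore subunit, lay at 5.97, 6.11 and 6.20 in the dexamethasone stallions and at 6.18, 5.89 and 5.85 in the controls. The groups overlapped, and control replicate 1 stood at the level of the highest dexamethasone stallion. The probe was near background on all 6 arrays. Its levels therefore give no comparison of the transcript.

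SLC9C1 carries, besides its transport part, a voltage sensor and a cyclic nucleotide binding domain. Its probe read 6.98, 6.98 and 7.08 in dexamethasone replicates 1 to 3 and 6.76, 6.61 and 6.96 in control replicates 1 to 3. The groups did not overlap, but control replicate 3 lay only just below the lowest dexamethasone stallions. Groups that do not overlap with the dexamethasone stallions higher were found for 4.2% of all tested probes, and with them lower for 5.07%. Means were 7.01 ± 0.06 against 6.78 ± 0.18 (SD, n = 3 each). The difference of 0.24 had a 95% interval from 0.01 to 0.47 in limma (unadjusted p = 0.0448, adjusted p = 0.999), and the exact two-sided permutation p was 0.1, the smallest that 3 against 3 allow.

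The gap between the SLC9C1 groups was not present before normalisation. Their intensity over local background was 77.5, 64.6 and 76.2 units in the dexamethasone stallions and 63.5, 45.2 and 69.2 in the controls, which overlap. The authors' scaled intensities, at 2.72, 2.66 and 3.19 against 2.06, 1.66 and 2.79, overlap as well. Control replicate 2 was the lowest value on each of the 3 scales, and without it the difference was 0.15 ± 0.10 (SE, limma, unadjusted p = 0.178). Leaving out any other single array except control replicate 3 also took limma's unadjusted p above 0.05, to between 0.0586 and 0.121, and without control replicate 3 it was 0.00925. Slide numbers fall into 2 runs, and the difference was 0.30 in the first of them (2 stallions against 2) and 0.12 in the other (1 against 1). With the run as a block it was 0.24 ± 0.09 (SE, limma, unadjusted p = 0.0282, adjusted p = 0.998). Plain background subtraction gave a larger difference of 0.44 ± 0.18 (SE, limma, adjusted p = 0.999), and the authors' scaled intensities gave 0.42 ± 0.20 (SE, limma, adjusted p = 0.973).

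HVCN1 was read at the edge of detection. Its values were 6.75, 6.24 and 6.44 in dexamethasone replicates 1 to 3 and 6.45, 6.55 and 6.27 in control replicates 1 to 3. Both the highest and the lowest value belonged to dexamethasone stallions, and 1 of 3 dexamethasone and 2 of 3 control spots were above background. Means were 6.48 ± 0.26 and 6.43 ± 0.14 (SD, n = 3 each), a difference of 0.05 ± 0.13 (SE, 95% interval -0.24 to 0.35, limma, unadjusted p = 0.692). The proton channel is also known from B cells and phagocytes. Of the 10 measured blood and immune markers, CD3E, CD68 and CD79A were above background on all 6 arrays, and CD79B and MS4A1 on 5. S100A8 was above background on 1 array, and PTPRC, CD14, CD163 and ITGAM on 0. The 5 tested markers differed by -0.03 to 0.15. The part of such cells in the HVCN1 signal was not tested.

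SLC26A8, needed in the mouse and in humans for sperm motility, lay at 6.00, 6.00 and 5.77 in the dexamethasone stallions and at 5.91, 6.12 and 5.94 in the controls. The groups overlapped, with dexamethasone replicate 3 the lowest of the 6. All spots were near background, and the probe was not tested.

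PLCZ1, the activation factor for the egg, was measured in every stallion. Its values were 7.13, 7.05 and 7.34 in dexamethasone replicates 1 to 3 and 7.03, 7.26 and 7.08 in control replicates 1 to 3. The 2 sets interleave, with dexamethasone replicate 3 the highest and control replicate 1 the lowest. Means were 7.17 ± 0.15 and 7.13 ± 0.12 (SD, n = 3 each), a difference of 0.05 ± 0.10 (SE, 95% interval -0.19 to 0.28, limma, unadjusted p = 0.673). Its sign is unsettled, at -0.06 in the first run of slides, 0.25 in the other and -0.04 without dexamethasone replicate 3. Likeness was searched for 1 member probe, that of PLCZ1, which had the highest mean intensity among those with 6 values. Intensities of different probes do not rank their transcripts, so this only picks a probe. Of 11008 named probes with complete values those of PLXNA1 (Pearson r = 0.985), GCKR (0.981) and COPS8 (0.981) followed it most closely over the 6 arrays. With so few arrays, 74 of the searched probes had an r above 0.9.

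**Figure D2:**
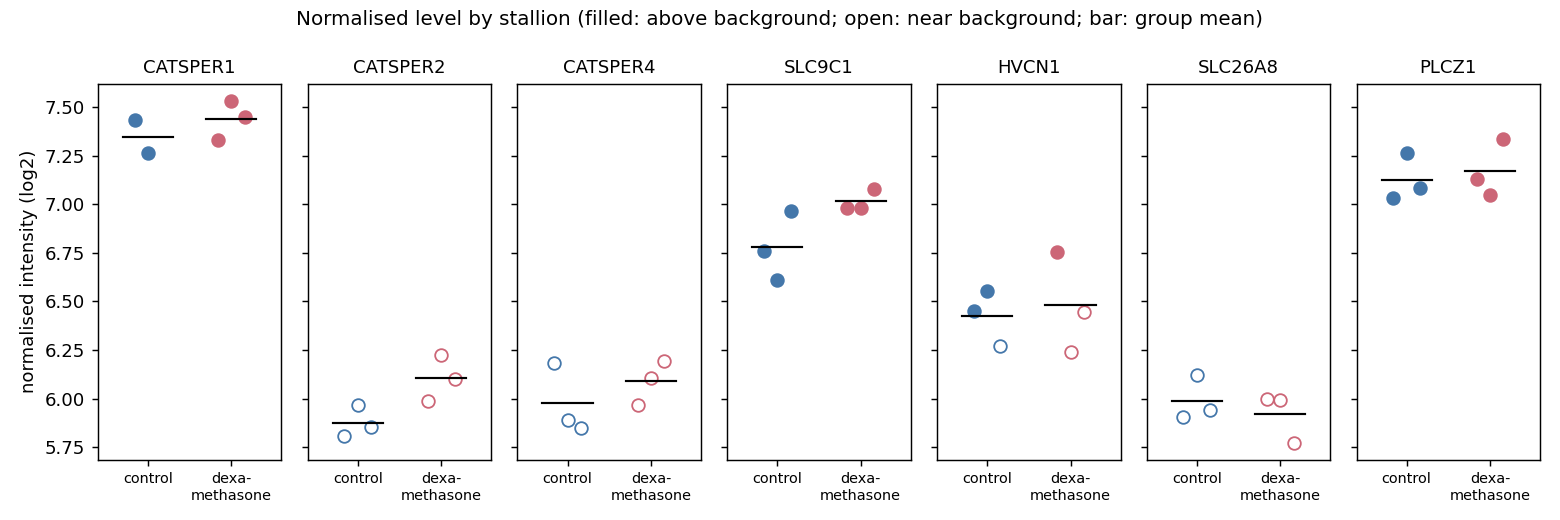
Normalised intensity (log2, vertical axis) of the 7 member probes in each control and dexamethasone stallion. Filled points were above background, open points were near background, and bars are group means; control replicate 3 has no usable CATSPER1 spot. The groups are apart for SLC9C1 and, near background, for CATSPER2, and overlap for the other 5 probes.

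The SDs between stallions of a group were 0.06 to 0.26 on the log2 scale for the 7 probes. Of these probes, 3 were near background on every array, and their SDs do not measure a spread of the transcript. No stallion stood at the same end for all 7 probes. Dexamethasone replicate 3 was the highest for 3 of the 7 probes and the lowest for 1, and control replicate 2 was the highest for 1 and the lowest for 2. Over the tested probes of the whole array the median SE was 0.10, which is close to the SEs of 0.10 to 0.13 of the 4 tested members. The offset of 50 used in the background correction compresses differences, between stallions as well as between groups, at intensities as low as these. The transcripts may therefore differ by more than the intervals allow.

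**Figure D3:**
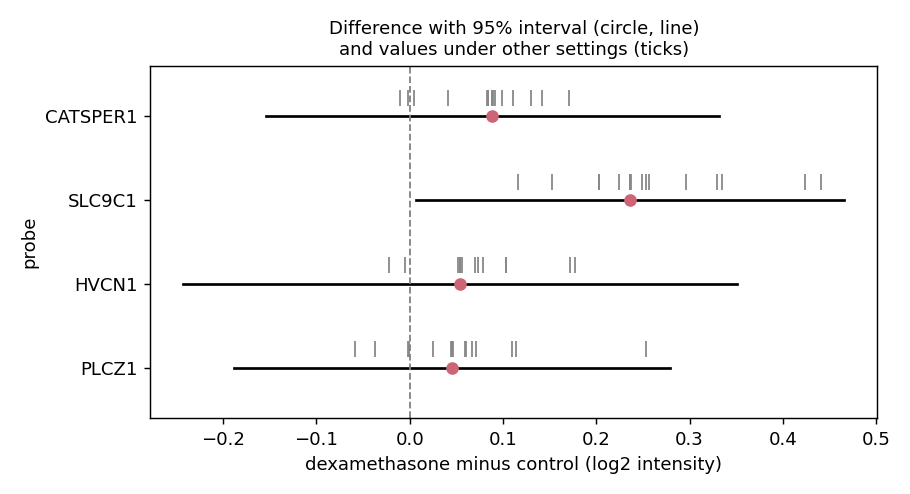
Difference between dexamethasone and control stallions (log2 intensity, horizontal axis) for the 4 tested member probes. Circles are the main values, lines are their 95% intervals in limma, and ticks above each line are the values under other settings, within-run values included. The interval of SLC9C1 starts just above 0, at 0.01, and those of CATSPER1, HVCN1 and PLCZ1 span 0.

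Other genes of sperm ion transport and activation were taken from a list of 86, of which 71 have a named probe and 46 were tested through 56 probes. None of the 56 passed the adjusted test in limma. At an unadjusted p under 0.05, 0 of the 56 were higher and 2 were lower, where 1.47% and 1.81% of all tested probes were. Groups did not overlap for 2 of the 56 with dexamethasone higher and 2 with it lower, against 4.2% and 5.07% of all tested probes. In all, 25 lay higher and 31 lower, with a median difference of -0.01, the same to 2 decimals as that of all tested probes. The differences ran from -0.28 to 0.19.

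Of the auxiliary subunits of the CatSper channel, 8 genes were measured. CATSPERB, CATSPERD, CATSPERE, C2CD6, TMEM249 and TMEM262 were tested, while CATSPERG and EFCAB9 were above background on 0 arrays. The CATSPERG groups did not overlap, at 5.95 to 6.15 in the dexamethasone stallions and 6.22 to 6.38 in the controls. Of all tested probes 5.07% had groups apart in that direction, a share not counted among probes near background. Like those of CATSPER2, these near-background levels give no fold between the groups. TMEM262 lay at 7.79, 7.69 and 7.80 in dexamethasone replicates 1 to 3 and at 7.93, 8.03 and 7.95 in control replicates 1 to 3. The groups did not overlap and the dexamethasone stallions were lower, a difference of -0.21 ± 0.08 (SE, limma, unadjusted p = 0.0278, adjusted p = 0.999). The other 5 differed by -0.15 to 0.05.

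SLC8A1, a sodium-calcium exchanger, was the second probe of the list at an unadjusted p under 0.05. It lay at 6.39, 6.39 and 6.19 in the dexamethasone stallions and at 6.60, 6.45 and 6.60 in the controls, and was above background on 4 arrays. All dexamethasone values were lower, by -0.23 ± 0.09 on average (SE, limma, unadjusted p = 0.0350, adjusted p = 0.999). The other SLC8A1 probes were above background on 2 and 0 arrays and were not tested, and their groups overlapped. Of the 8 tested probes of calcium pumps, exchangers and stores, 1 was higher and 7 were lower, with a median of -0.11. They read only 6 genes, and ATP2C1 and STIM1 each gave more than 1 of the lower probes. Over all tested probes 47.5% were higher, with a median of -0.01. Of these 8, only that of SLC8A1 had an unadjusted p under 0.05.

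Transporters of bicarbonate, chloride and protons, the partners of the pH rise in sperm, gave no probe past either threshold. SLC26A3 and SLC26A6, relatives of SLC26A8, differed by -0.28 ± 0.14 and -0.16 ± 0.09 (SE), and their groups overlapped. The SLC26A3 probe was above background on only 3 arrays, and a further SLC26A6 probe, not tested, on 0. SLC9A3, a sodium-proton exchanger related to SLC9C1, differed by 0.19 ± 0.13 (SE). The probes of SLC9A8 differed by 0.05 ± 0.11 at a mean near 10.1 and by -0.12 ± 0.09 at a dimmer probe. ADCY10, the bicarbonate-sensitive adenylyl cyclase of sperm, was above background on 0 arrays. AKAP3 and AKAP4, the kinase anchors of the flagellum, differed by -0.02 ± 0.22 and 0.14 ± 0.13 (SE).

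Partners of the sodium pump were read although ATP1A4 itself was not, and so were activation factors other than PLCZ1. ATP1B2, a beta subunit of the sodium pump, differed by 0.14 ± 0.08 on a dim probe with groups that did not overlap, and by 0.10 ± 0.11 on a brighter one whose groups overlapped (SE). WBP2NL, another protein proposed as an egg activation factor, lay at 9.77, 9.20 and 9.79 in the dexamethasone stallions and 9.72, 9.41 and 9.54 in the controls, a difference of 0.03 ± 0.16 (SE). PLCG1 and PLCD4, phospholipases of other families than PLCZ1, differed by -0.18 ± 0.12 and -0.07 ± 0.09 (SE). The remaining genes named by brightness or by p passed neither threshold. ATP2C1, a Golgi calcium pump, differed by -0.14 ± 0.10 and -0.24 ± 0.15, HCN4, a cation channel, by -0.18 ± 0.10 and 0.09 ± 0.08, TRPV1 by 0.05 ± 0.10 and SPATA25 by 0.09 ± 0.14 (SE).

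**Figure D4:**
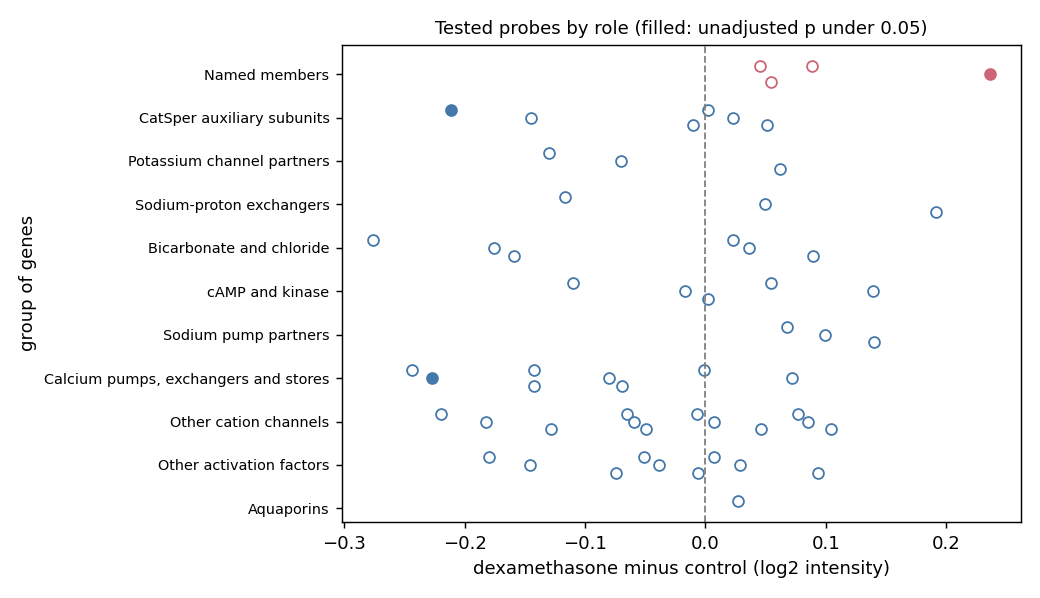
Difference between dexamethasone and control stallions (log2 intensity, horizontal axis) for the 4 tested member probes and for the 56 tested probes of other sperm ion transport and activation genes, by role (vertical axis). Each point is a probe, and filled points had an unadjusted p under 0.05 in limma. The filled points are SLC9C1 at 0.24, TMEM262 at -0.21 and SLC8A1 at -0.23.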

How the data were processed

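The files that the authors deposited give for every spot of 6 one-colour arrays the spot mean and the local background as linear intensity, per the file headers. They also hold a scaled intensity, which from the values is the background-subtracted intensity divided by a constant per array, and a signal strength score, the spot mean divided by a noise level, per the file headers. The scanner software and the rule behind each flag were not given in the sources used here. Spots flagged M, C, I or P were missing. Intensities were corrected with normexp (offset 50), probes present more than once were dropped, and the rest was taken to log2 and then quantile normalised. limma 3.58.1 in R 4.3.3 compared dexamethasone with control by lmFit and eBayes in a two-sided test, adjusted by Benjamini-Hochberg over the 24590 probes tested. The test was checked on simulated data with independent noise and changes larger than the members' differences. That check does not show whether differences of the members' size would be found. Errors are SDs or limma's moderated SEs, and intervals are 95%. Figures used matplotlib 3.10.9 in Python 3.11.15. Replicate numbers follow sample order and pair no stallions.

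The members and the lists were chosen with earlier results of these data known. The text names all members and, from the list of related genes, up to 8 probes with the smallest p and the 6 brightest genes above background on all arrays. CATSPER subunits, SLC9A3, ADCY10, AKAP3, AKAP4 and PLCD4 were named beyond that for their roles, after their values were seen. C2CD6, TMEM249 and TMEM262 carry later symbols in the platform table. No table of probe, promoter or protein sequences was used here.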

Additional observations from a re-analysis of the deposited data

How the results depend on the processing

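Over the alternative fits, left-out arrays included, the adjusted p of the tested members stayed at 0.659 or higher, and 0 members passed. Members tested numbered 4, and 7 with no filter and 2 with the filter of all 6 arrays, by construction. Members at an unadjusted p under 0.05 in limma numbered 1, where 3.29% of all tested probes were. They numbered 0 with median scaling and with the authors' values, where 7.31% and 3.41% were. With no filter they numbered 2, SLC9C1 and CATSPER2, where 3.92% were, and CATSPER2 was above background on 0 arrays. When single arrays were left out they numbered 0 to 1 (1 without control replicate 3, 0 without any other), where 2.52% to 4.69% were. The cause of the changes in this count was not tested. SLC9C1 stayed higher in all its alternatives, at 0.12 to 0.44. CATSPER1 turned to -0.0102 with flagged spots kept and to -0.0020 with median scaling, under which the median of all tested probes was -0.08. HVCN1 was -0.0047 in the first slide run and -0.022 to 0.18 with single arrays left out. PLCZ1 was -0.0011 with median scaling, -0.058 in the first slide run and -0.038 to 0.11 with single arrays left out. HVCN1 was not tested without control replicate 1 or 2 or dexamethasone replicate 1, where too few arrays remained above background. Where 1 control value was left for CATSPER1, it was assumed to vary like the rest. Signals near background, on all 6 arrays for 3 member probes and on 3 of 6 for HVCN1, limit what could be seen.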
